A study of Mus musculus with 6 samples.

Results

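Chemokine genes of natural killer (NK) cells were described here at the level of chromatin accessibility. The 7 genes were Ccl3, Ccl4, Ccl5, Ccl6, Ccl9, Ccl1 and Xcl1, and every peak in the table that names one of them as its nearest gene was taken, 40 of 51775 peaks in all. Xcl1 had 10 peaks, Ccl1 had 9, Ccl5 had 7, Ccl3 and Ccl9 had 5 each, and Ccl4 and Ccl6 had 2 each. Peaks were assigned by distance alone, which does not show the gene that a peak regulates.

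The assay was ATAC-seq, where a transposase cuts accessible chromatin and tags the ends for sequencing. The Rroid-deficient group (libraries 4, 5 and 6) and the wildtype group (libraries 1, 2 and 3) were NK cells of mice on the C57BL6 background, flow sorted from the spleen by the phenotype CD3- CD5- NK1.1+ NKp46+. The Rroid locus encodes a long noncoding RNA and neighbours Id2, a gene needed for NK cell maturation. Per the labels, 50000 cells of each genotype were transposed in triplicate. Separate animals for the 3 libraries, the age and sex of the mice and the way Rroid was removed are not given in the labels, so the p-values measure the spread between these libraries, which may be technical.

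Depth, as reads falling in peaks, was 27572006, 41167610 and 30762426 for Rroid-deficient libraries 4, 5 and 6, against 43187774, 47939665 and 39847736 for wildtype libraries 1, 2 and 3. Libraries 4 and 6 were thus the shallowest of the 6. The files do not name Rroid, but 11 peaks on chromosome 12 near Gm17746, between 26000744 and 26079794 (mm9), each under 5% of its wildtype value, together held 31 to 43 reads per Rroid-deficient library and 4531 to 6509 per wildtype library. All 7 NK marker genes (Ncr1, Klrb1c, Eomes, Tbx21, Prf1, Gzma and Itga2) had a peak within 1 kb of the start site in both genotypes. These peaks summed to 15039 to 17957 normalized reads per Rroid-deficient library and 18802 to 21477 per wildtype library, and 5 of the 7 fell. Of all peaks 12.1% were called lower, and 16.8% in the highest quartile by height, where all 7 stood. Among the 5, the groups overlapped at Tbx21 and Klrb1c. The Ncr1 and Eomes peaks, without a call, averaged 84.6% and 84.8% of wildtype (unadjusted p = 0.0288 and 0.0153, limma). Among T-cell markers 2 of 8 genes had such a peak, Cd3g and Cd5. Both peaks rose, to a sum of 432 to 516 per Rroid-deficient library, against 96.7 to 174 per wildtype library. The Cd3g groups did not overlap, with 353 ± 33.5 in Rroid-deficient and 58.7 ± 5.84 in wildtype cells. The Cd5 groups overlapped, with 118.0, 131 and 141 in Rroid-deficient libraries 4, 5 and 6, against 118.4, 43.7 and 31.3 in wildtype libraries 1, 2 and 3. Of 12 myeloid and 6 B-cell markers, 2 each had a start-site peak, and 0 of these 4 peaks passed the test in limma, edgeR or DESeq2 or had an unadjusted p under 0.05 in limma. The part of these markers in the results below was not tested.

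Chemokines are small secreted proteins that steer leukocytes through G-protein-coupled receptors. Activated NK cells release CCL3 and CCL4 (macrophage inflammatory proteins 1α and 1β), CCL5 (RANTES) and XCL1 (lymphotactin). CCL3 and CCL5 act on CCR1, and CCL5 also on CCR3. CCL6 and CCL9 are rodent ligands of CCR1 best known from myeloid cells, CCL1 binds CCR8, and XCL1 attracts the dendritic cells that carry XCR1.

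The 40 peaks lay in 3 places. The genes Ccl5, Ccl9, Ccl6, Ccl3 and Ccl4 are linked on chromosome 11, and their 21 peaks stood between 83340553 and 83477728, a span of 137.2 kb (mm9, coordinates as deposited). The 9 Ccl1 peaks formed a separate group on chromosome 11, between 81988170 and 82053384, and the 10 Xcl1 peaks lay on chromosome 1, between 166835115 and 166944863. Of the 40 peaks, 32 were annotated as intergenic (80.0%, against 35.9% of all peaks) and 25 lay over 10 kb from a start site. Of those 25, 9 fell and 4 rose, where 13.5% and 14.7% of all peaks as far away were called lower and higher. By quartile of the mean log2 value over all peaks, 20 of the 40 stood in the highest quartile, 9 in the third, 4 in the second and 7 in the lowest. At 10 of the 40 the annotation at the peak's centre was a repeat element (25.0%, against 16.5% of all peaks).

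In Rroid-deficient NK cells most peaks of the linked cluster were called lower, though the genotypes overlapped at 12 of its 21 peaks. The Ccl1 locus was called higher at 4 peaks. Xcl1 was called lower at 3 upstream peaks, with no call at its start site. Several of these calls were lost when a single library was left out, as given below. Of the 40 peaks 16 fell, 5 rose and 19 had no call (limma with Benjamini-Hochberg adjustment over all 51775 peaks, adjusted p under 0.05). Over all peaks 12.1% were called lower and 13.8% higher. The Rroid-deficient libraries all lay below the wildtype libraries at 12 of the 40 peaks and all above them at 6, which was so at 20.1% and 20% of all peaks. The linked cluster had 13 falling and 1 rising peak of 21, the Ccl1 locus 0 falling and 4 rising peaks of 9, and Xcl1 3 falling and 0 rising peaks of 10. Median log2 fold changes were -0.45 in the cluster, 0.19 at Ccl1 and -0.06 at Xcl1, beside -0.01 over all peaks. By quartile of height, 11 of 20 members in the highest fell and 2 rose (all peaks, 16.8% lower and 7.77% higher), and 5 of 9 in the third fell and 0 rose (18.1% and 17.8%). In the second quartile 0 of 4 fell and 2 rose (9.45% and 16.3%), and in the lowest 0 of 7 fell and 1 rose (3.92% and 13.2%). Peaks of one locus are neighbours and are not independent of each other. In bulk data a lower value from less open DNA per cell and one from fewer cells with the site open cannot be told apart.

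The number of calls changed when single libraries were left out. Without library 4, without library 6 and without wildtype library 2, the cluster had 7, 8 and 7 falling peaks, and all members 8, 9 and 8. Without library 5, without wildtype library 1 and without wildtype library 3, all members had 18, 11 and 17. Fewer libraries also lower the power of the test. The shares called over all peaks in these fits are not given, so a general loss of calls cannot be told apart. With both libraries 4 and 6 left out, which leaves library 5 as the only Rroid-deficient one and assumes that it varies like the wildtype libraries, 3 cluster peaks, 1 Xcl1 peak and 3 Ccl1 peaks were called. These 7 of the 21 called peaks kept their call in all 16 alternative fits. The fit with no filter, 1 of the 16, could not differ from the main fit. The Ccl1 peak 59741 bp upstream passed the filter of 50 through the Rroid-deficient libraries alone.

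**Figure D1:**
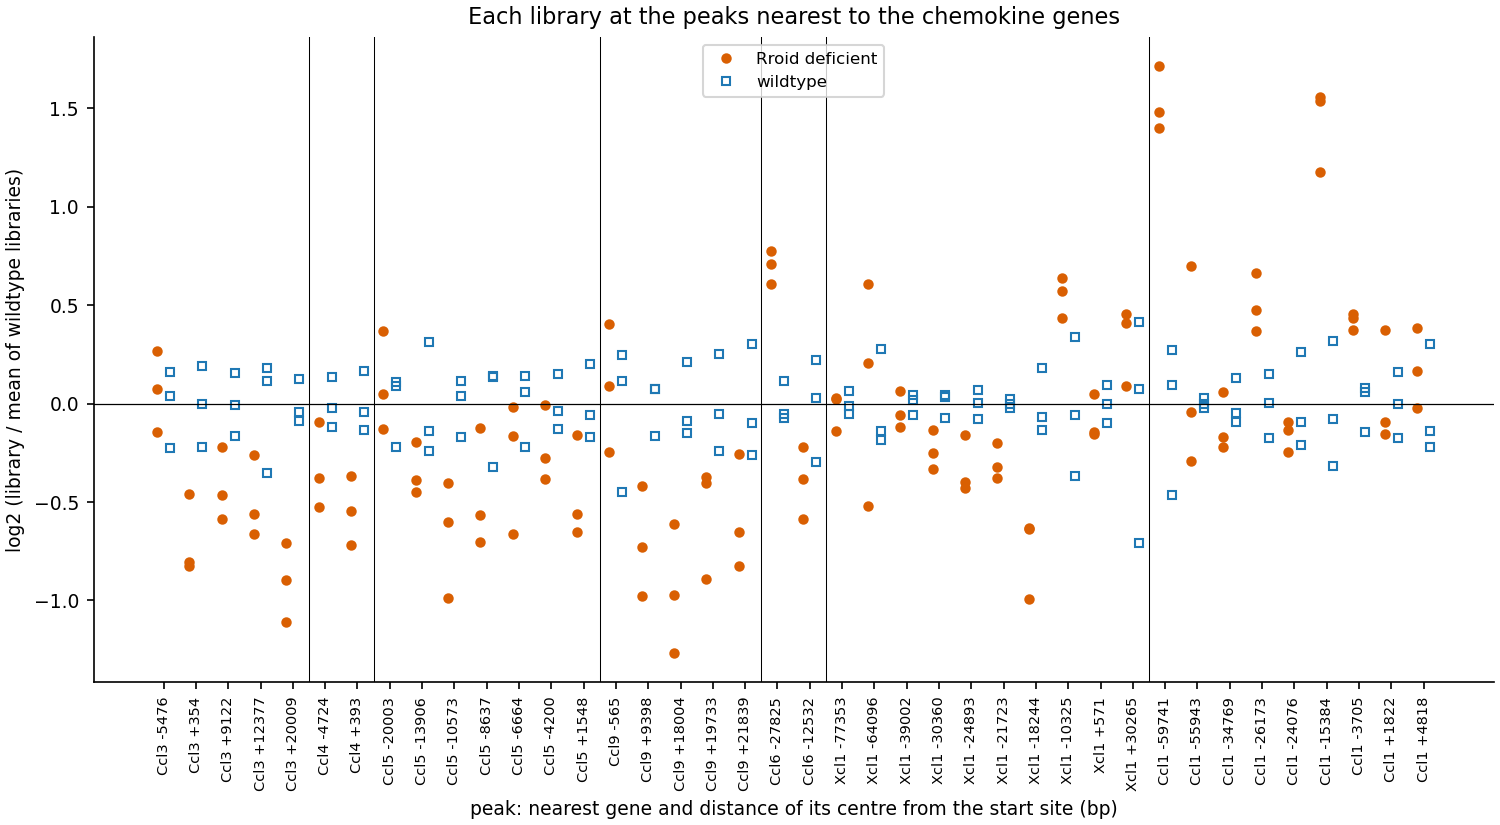
Log2 of each library's value over the mean of the wildtype libraries (y axis) at each of the 40 peaks (x axis, nearest gene and signed distance in bp from the start site), with Rroid-deficient libraries as filled circles left of wildtype libraries as open squares. The 3 Rroid-deficient circles lie below all squares at 12 peaks, mostly of Ccl3, Ccl9 and Xcl1, and above them at 6, of which 4 belong to Ccl1.

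Ccl3 fell at 4 of 5 peaks and held the smallest adjusted p of the 40. At the intergenic peak 20009 bp downstream of its start site (chromosome 11, 83442009 to 83443733), which lies between Ccl6 and Ccl3, there were 2321, 3060.5 and 2695 normalized reads in Rroid-deficient libraries 4, 5 and 6, against 4861, 5453 and 4709.9 in wildtype libraries 1, 2 and 3. The groups did not overlap, the lowest wildtype library standing well above the highest Rroid-deficient one. The peak fell to 53.8% of wildtype, 2692 ± 369.9 in Rroid-deficient and 5008 ± 393 in wildtype cells (SD, n = 3 each; log2 fold change -0.90, SE 0.10, adjusted p = 3.93e-06, limma). It was a high peak, above 96.0% of all peaks by mean value.

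At the start site of Ccl3, a peak reaching 657 bp upstream and 1365 bp downstream (83461515 to 83463537, annotated as intron) held 1629.8, 2065 and 1607 normalized reads in Rroid-deficient libraries 4, 5 and 6, against 2838, 3251 and 2442 in wildtype libraries 1, 2 and 3. It fell to 62.1% of wildtype without overlap (log2 fold change -0.69, SE 0.11, adjusted p = 0.000273, limma). The largest Ccl3 peak, 9122 bp downstream (83452331 to 83455185), held 3757, 4849 and 4096 normalized reads in Rroid-deficient libraries 4, 5 and 6, against 5625, 6281 and 5036 in wildtype libraries 1, 2 and 3, and it fell to 75.0% (log2 fold change -0.42, SE 0.10, adjusted p = 0.0047, limma). These 2 peaks and the one 20009 bp downstream were each lower in every Rroid-deficient library than in any wildtype library. The peak 12377 bp downstream (83450178 to 83450829) held 601, 794 and 646 normalized reads in Rroid-deficient libraries 4, 5 and 6, against 1032, 1079 and 746 in wildtype libraries 1, 2 and 3, and its fall (log2 fold change -0.48, SE 0.14, adjusted p = 0.0193, limma) came with overlapping groups. Library 5 stood above wildtype library 3. This call was lost in 5 of the 16 alternative fits, 4 of them without 1 library (4, 6, wildtype 1 or wildtype 2). The call 9122 bp downstream was lost only without both libraries 4 and 6.

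The remaining Ccl3 peak had no call. The peak 5476 bp upstream of its start site (83467942 to 83468771), between Ccl3 and Ccl4, held 1229, 1636 and 1431 normalized reads in Rroid-deficient libraries 4, 5 and 6, against 1394, 1519 and 1160.4 in wildtype libraries 1, 2 and 3, with the genotypes interleaved. Its mean was 1432 ± 204 in Rroid-deficient and 1358 ± 182 in wildtype cells (log2 fold change 0.08, SE 0.12, adjusted p = 0.681, limma).

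Within each library, the ratio of the peak 20009 bp downstream to the peak 5476 bp upstream was 1.89, 1.87 and 1.88 in Rroid-deficient libraries 4, 5 and 6, against 3.49, 3.59 and 4.06 in wildtype libraries 1, 2 and 3. The ratios did not overlap between genotypes. Means were 1.88 ± 0.009 and 3.71 ± 0.305 in Rroid-deficient and wildtype cells (two-sided exact permutation test, p = 0.1, the smallest that 3 against 3 can give). Both peaks were chosen for this ratio after their values were seen, so it is a description, and the part of depth in the fall was not tested.

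**Figure D2:**
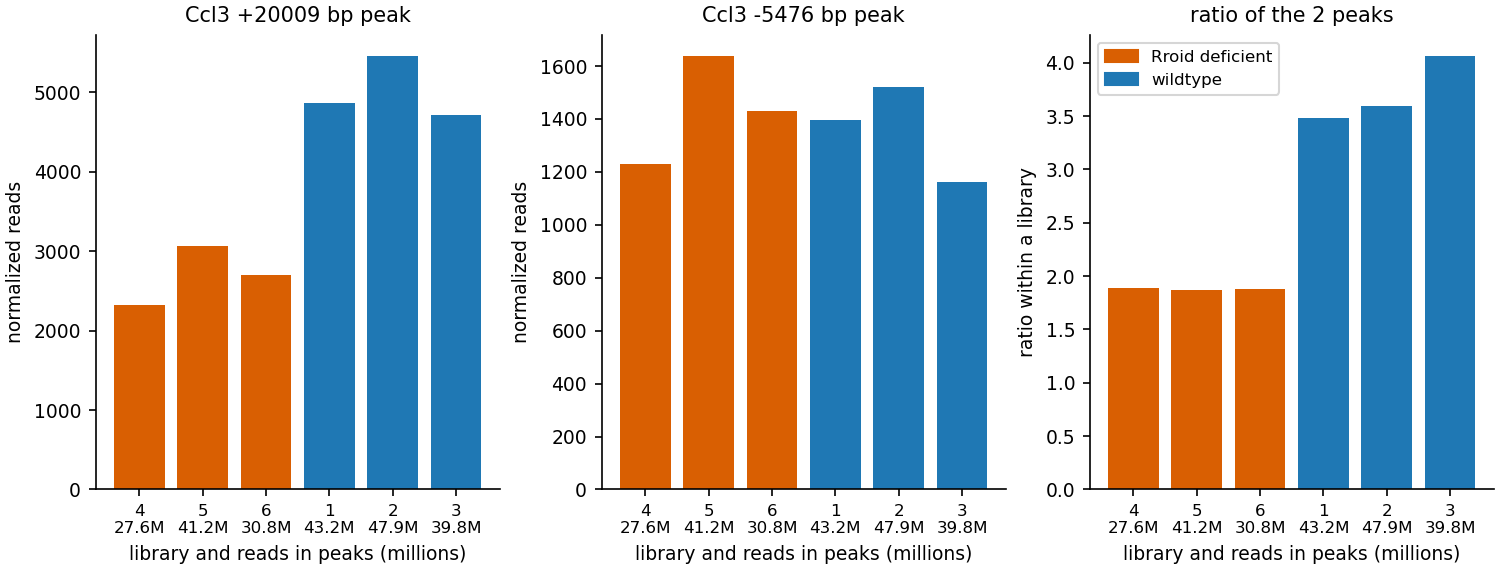
Normalized reads per library (y axis, bars from 0) at the Ccl3 peak 20009 bp downstream (left) and 5476 bp upstream (middle) of the start site, and the ratio of both within a library (right), with libraries and their reads in peaks on the x axis. The ratio is 1.87 to 1.89 in the 3 Rroid-deficient libraries and 3.49 to 4.06 in the 3 wildtype libraries, while the ranges of the upstream peak overlap.

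Ccl4 fell at both of its peaks. At the start-site peak (83475231 to 83477728, annotated as intron) there were 1502, 1916 and 1691 normalized reads in Rroid-deficient libraries 4, 5 and 6, against 2394, 2767 and 2249 in wildtype libraries 1, 2 and 3. The groups did not overlap, and the peak fell to 69.0% of wildtype (log2 fold change -0.54, SE 0.10, adjusted p = 0.00105, limma). The peak 4724 bp upstream (83470665 to 83472060), which faces Ccl3, held 1244, 1680.2 and 1378 normalized reads in Rroid-deficient libraries 4, 5 and 6, against 1761, 1963 and 1647 in wildtype libraries 1, 2 and 3. Its groups overlapped, with library 5 above wildtype library 3, and its fall was to 80.1% (log2 fold change -0.33, SE 0.11, adjusted p = 0.0389, limma). This call was lost in 5 of the 16 alternative fits, 4 of them without 1 library (4, 6, wildtype 1 or wildtype 2) (adjusted p up to 0.766). The start-site call was lost only without both libraries 4 and 6. Ccl3 and Ccl4 are transcribed away from each other, and their start-site peaks had a ratio of 1.08, 1.08 and 0.95 in Rroid-deficient libraries 4, 5 and 6, against 1.19, 1.17 and 1.09 in wildtype libraries 1, 2 and 3. The groups nearly touched, with the highest Rroid-deficient ratio just under the lowest wildtype one (two-sided exact permutation test, p = 0.1, the smallest possible). This pair was also chosen after the values were seen.

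Ccl5 fell at 3 of 7 peaks, to between 63.9% and 73.7% of wildtype. The widest peak of the cluster, 3841 bp long and spanning the Ccl5 start site (83340553 to 83344392), held 1849, 2601 and 1969 normalized reads in Rroid-deficient libraries 4, 5 and 6, against 2789, 3345 and 2587 in wildtype libraries 1, 2 and 3. Library 5 stood just above wildtype library 3, and the peak fell to 73.6% of wildtype (log2 fold change -0.45, SE 0.12, adjusted p = 0.0105, limma). At the peak 10573 bp upstream (83354243 to 83354943) there were 626, 939 and 817 normalized reads in Rroid-deficient libraries 4, 5 and 6, against 1276, 1346 and 1103 in wildtype libraries 1, 2 and 3. This was the one Ccl5 peak whose groups did not overlap, and it fell to 63.9% (log2 fold change -0.66, SE 0.13, adjusted p = 0.00141, limma). The peak 8637 bp upstream (83352285 to 83353029) held 469, 701 and 516 normalized reads in Rroid-deficient libraries 4, 5 and 6, against 839, 840.1 and 610.5 in wildtype libraries 1, 2 and 3, an overlapping fall to 73.7% (log2 fold change -0.45, SE 0.15, adjusted p = 0.041, limma). None of the 3 calls held in all 16 alternative fits. The peak 8637 bp upstream lost its call in 6, 4 of them without 1 library (4, 6, wildtype 1 or wildtype 2). This call was also lost under scaling by total reads, with all 6 libraries kept. The start-site peak lost it in 4, of which 3 left out 1 library (4, 6 or wildtype 2). The peak 10573 bp upstream lost it in 1, without both libraries 4 and 6.

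The other 4 Ccl5 peaks had no call. The highest of them, 4200 bp upstream (83347333 to 83349107), averaged 3975 ± 549 in Rroid-deficient and 4612 ± 465 in wildtype cells (SD, n = 3 each), and peaks 6664 and 13906 bp upstream stood at 83.7% and 79.0% of wildtype. The farthest, 20003 bp upstream (83363377 to 83364670), averaged 723 ± 129 in Rroid-deficient and 669 ± 82.2 in wildtype cells (log2 fold change 0.10, SE 0.14, adjusted p = 0.614, limma). Against it, the ratio of the peak 10573 bp upstream was 1.02, 1.09 and 1.18 in Rroid-deficient libraries 4, 5 and 6, against 1.77, 1.89 and 1.92 in wildtype libraries 1, 2 and 3, again without overlap and again a pair chosen after the values were seen.

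Around Ccl9 the 4 downstream peaks fell and the promoter peak did not pass the test. At 18004 bp downstream (83373780 to 83374488) there were 279.8, 439.8 and 343 normalized reads in Rroid-deficient libraries 4, 5 and 6, against 606, 779 and 634 in wildtype libraries 1, 2 and 3. This was the largest fall of the 40 peaks in log2 units, to 52.6% of wildtype (log2 fold change -0.94, SE 0.16, adjusted p = 0.000262, limma). At 9398 bp downstream (83382175 to 83383306) there were 652, 961 and 775 normalized reads in Rroid-deficient libraries 4, 5 and 6, against 1351, 1354 and 1148 in wildtype libraries 1, 2 and 3, a fall to 62.0% (log2 fold change -0.70, SE 0.13, adjusted p = 0.000627, limma). Neither peak's groups overlapped. The peaks 19733 bp (83372000 to 83372811) and 21839 bp downstream (83369725 to 83370873) averaged 500.3 ± 94.6 in Rroid-deficient and 725 ± 127 in wildtype cells, and 256 ± 53.0 in Rroid-deficient and 377 ± 78.2 in wildtype cells (adjusted p = 0.0144 and 0.0255, limma). At the first of these the libraries were 391, 561 and 549 normalized reads in Rroid-deficient libraries 4, 5 and 6, against 698, 864 and 614 in wildtype libraries 1, 2 and 3, without overlap. At the second they were 240.0, 315 and 213 normalized reads in Rroid-deficient libraries 4, 5 and 6, against 352, 465 and 315 in wildtype libraries 1, 2 and 3, with library 5 level with wildtype library 3. The call 19733 bp downstream was lost without library 4 and without wildtype library 2, and the call 21839 bp downstream also without library 6. All 4 stand between Ccl5 and Ccl9, nearer to the Ccl9 start site than to that of Ccl5.

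The Ccl9 promoter peak, centred 565 bp upstream (83392302 to 83393105), was low and held 117, 92.3 and 145 normalized reads in Rroid-deficient libraries 4, 5 and 6, against 130.0, 118 and 80.1 in wildtype libraries 1, 2 and 3 (log2 fold change 0.11, SE 0.23, adjusted p = 0.762, limma). Ccl6 had no peak within 10 kb of its start site. The nearest, 12532 bp upstream, held 232, 267 and 299 normalized reads in Rroid-deficient libraries 4, 5 and 6, against 354, 406 and 283 in wildtype libraries 1, 2 and 3 (adjusted p = 0.0897, limma). The peak 27825 bp upstream (83434068 to 83434760, annotated as non-coding) was the one riser of the cluster, with 119, 125 and 111 normalized reads in Rroid-deficient libraries 4, 5 and 6, against 70.3, 79.0 and 69.3 in wildtype libraries 1, 2 and 3. It rose to 162.5% of wildtype without overlap (log2 fold change 0.69, SE 0.21, adjusted p = 0.0197, limma), and the call was lost without library 4, without library 6 and without wildtype library 3. Of the myeloid marker list, 10 of 12 genes had no start-site peak, among them Lyz2, Csf1r and Mpo. The 2 that had one, Cd14 and Cebpa, stood above 58.4% and 71.4% of all peaks by mean value. They summed to 762 to 842 normalized reads per Rroid-deficient library and 799.6 to 938 per wildtype library. Any part of myeloid cells in the Ccl6 and Ccl9 values was not tested.

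**Figure D3:**
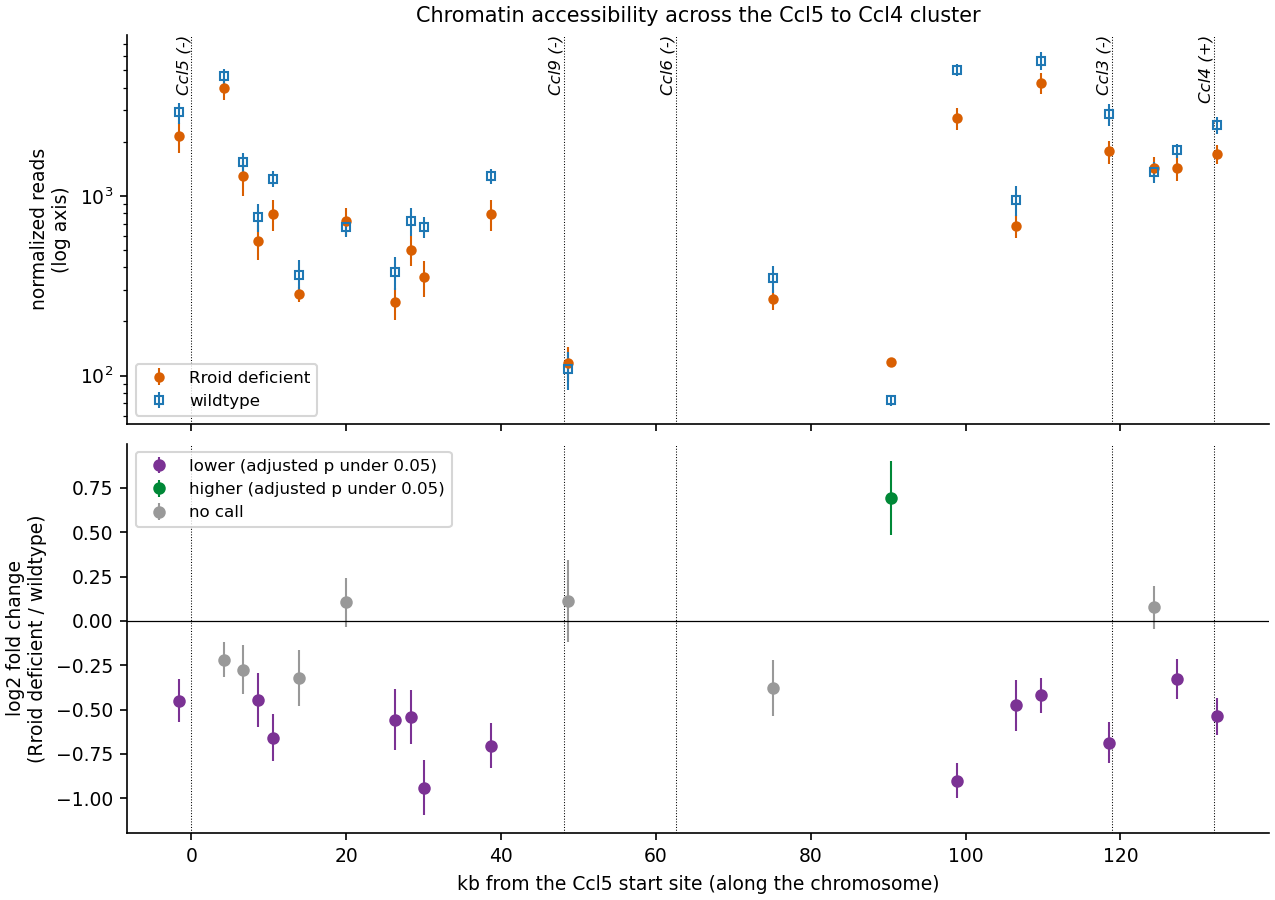
The 21 peaks of the linked cluster by distance in kb from the Ccl5 start site along the chromosome, with gene start sites as dotted lines and strands in brackets. The upper panel gives mean normalized reads on a log axis with SD as bars (n = 3 per genotype, Rroid deficient filled, wildtype open), and the lower panel gives log2 fold changes with SE, where 13 peaks lie below 0 with a call and 1 peak between Ccl6 and Ccl3 rises.

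Summed over its 21 peaks, the cluster held 22637, 30285 and 25424 in Rroid-deficient libraries 4, 5 and 6, against 35506, 39886 and 31855 in wildtype libraries 1, 2 and 3. The sum was 26115 ± 3871 in Rroid-deficient and 35749 ± 4021 in wildtype cells (SD, n = 3 each), 73.1% of wildtype, and the groups did not overlap (two-sided exact permutation test, p = 0.1, the smallest possible). By gene, the sum was 63.9% of wildtype for Ccl9, 68.3% for Ccl3, 73.6% for Ccl4, 80.8% for Ccl5 and 91.3% for Ccl6, with exact p = 0.1 for the first 3, 0.2 for Ccl5 and 0.4 for Ccl6. Over all 51775 peaks the sum was 96.0% of wildtype. The start-site peaks of the 7 NK markers (all lower on average, 5 with a call) and those of Cd3g and Cd5, which rose, moved between the same libraries. The part of these marker peaks in the cluster and Ccl1 results was not tested.

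Values in the cluster moved with depth inside each genotype. The deepest Rroid-deficient library, 5, was the highest of its group at 19 of 21 cluster peaks, and the deepest wildtype library, 2, at 19 of 21. These shares were 37.5% and 31.4% over all peaks, and 75.2% and 49.4% over all peaks of the highest quartile. Library 5, with a depth between those of wildtype libraries 1 and 3, was below all 3 wildtype libraries at 9 of 21 peaks and above them at 3, where 36.8% and 32.4% of all peaks were. In the highest quartile these shares were 31.8% and 34.1%. With library 5 as the only Rroid-deficient library, the log2 fold change was smaller than with all libraries by over 1.5 times at 11 of the 13 falls. It was -0.71 at the peak 20009 bp downstream of Ccl3, -0.45 at the Ccl3 start site and -0.60 at the peak 18004 bp downstream of Ccl9, with adjusted p = 0.000387, 0.0422 and 0.0318 (limma). At the other 10 it lay between -0.41 and -0.088 with no call (adjusted p = 0.088 to 0.776, limma). Among these it was -0.15 at the Ccl5 start site, -0.11 at the peak 8637 bp upstream of Ccl5 and -0.21 at the peak 9122 bp downstream of Ccl3. It was -0.088 at the peak 4724 bp upstream of Ccl4 and -0.36 at the Ccl4 start site. The 13 falls were picked for passing with all 6 libraries, so smaller changes with fewer libraries are likely through that choice alone. The share of such shrinkage over all falling peaks is not given. The part of depth in these falls was not tested.

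The Ccl1 locus rose at 4 peaks, all upstream of the gene. At 15384 bp upstream (chromosome 11, 82008360 to 82009036) there were 145, 147 and 112 normalized reads in Rroid-deficient libraries 4, 5 and 6, against 47.2, 62.2 and 40.0 in wildtype libraries 1, 2 and 3. The peak rose 2.70-fold without overlap (log2 fold change 1.43, SE 0.24, adjusted p = 0.000294, limma). At 59741 bp upstream (82052727 to 82053384) there were 101, 85.7 and 81.0 normalized reads in Rroid-deficient libraries 4, 5 and 6, against 22.3, 32.8 and 37.1 in wildtype libraries 1, 2 and 3, a 2.90-fold rise (log2 fold change 1.53, SE 0.28, adjusted p = 0.000706, limma). Both are low peaks, the second with 76, 90 and 67 reads in Rroid-deficient libraries 4, 5 and 6 and 25, 39 and 38 in wildtype libraries 1, 2 and 3, so counting error is large there.

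The 2 higher Ccl1 peaks rose by smaller factors. The peak 3705 bp upstream (81996514 to 81997525) held 1144, 1127 and 1083 normalized reads in Rroid-deficient libraries 4, 5 and 6, against 882, 869 and 755 in wildtype libraries 1, 2 and 3, 1.34-fold higher (log2 fold change 0.42, SE 0.10, adjusted p = 0.00557, limma). The peak 26173 bp upstream (82018776 to 82020198) held 1001, 1229 and 1076 normalized reads in Rroid-deficient libraries 4, 5 and 6, against 777, 860.3 and 687 in wildtype libraries 1, 2 and 3, 1.42-fold higher (log2 fold change 0.51, SE 0.11, adjusted p = 0.00338, limma). At both, every Rroid-deficient library stood above every wildtype library. The call 3705 bp upstream held in 15 of the 16 alternative fits. The exception left out both libraries 4 and 6, with a log2 fold change of 0.44. The other 3 Ccl1 calls held in all 16. The intronic peak nearest to the start site, 1822 bp downstream (81991193 to 81991791), was low, with 83.5, 58.1 and 60.5 normalized reads in Rroid-deficient libraries 4, 5 and 6, against 72.1, 57.1 and 64.5 in wildtype libraries 1, 2 and 3 (log2 fold change 0.05, SE 0.25, adjusted p = 0.914, limma). The 4 other uncalled peaks ranged from -0.14 to 0.19 in log2 fold change, and the one 34769 bp upstream, of like height to its rising neighbours in wildtype cells, averaged 794 ± 84.0 in Rroid-deficient and 853 ± 70.0 in wildtype cells. Summed over the locus the values were 3546, 3852 and 3483 in Rroid-deficient libraries 4, 5 and 6, against 2927, 3167 and 2698 in wildtype libraries 1, 2 and 3 (exact p = 0.1, the smallest possible), 123.8% of wildtype. A low peak 2524 bp downstream of the start site of Ccl7, the other CC chemokine gene of this stretch with a peak, averaged 47.9 ± 6.73 in Rroid-deficient and 25.2 ± 6.29 in wildtype cells (adjusted p = 0.051, limma).

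Xcl1 fell at 3 upstream peaks, and its start-site peak did not pass the test. The start-site peak (chromosome 1, 166863725 to 166866416, annotated as intron) held 2846, 3276 and 2868 normalized reads in Rroid-deficient libraries 4, 5 and 6, against 2959, 3375 and 3163 in wildtype libraries 1, 2 and 3, with overlapping groups (log2 fold change -0.08, SE 0.09, adjusted p = 0.537, limma). At 18244 bp upstream (166883520 to 166884250) there were 256, 327 and 329 normalized reads in Rroid-deficient libraries 4, 5 and 6, against 578, 465 and 486 in wildtype libraries 1, 2 and 3. This peak fell to 59.7% of wildtype without overlap (log2 fold change -0.75, SE 0.14, adjusted p = 0.0009, limma), and its ratio to the start-site peak was 0.09, 0.10 and 0.11 in Rroid-deficient libraries 4, 5 and 6, against 0.20, 0.14 and 0.15 in wildtype libraries 1, 2 and 3. This pair, too, was chosen after the values were seen, so the ratio is a description.

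The other falls at Xcl1 were smaller. The peak 24893 bp upstream (166889840 to 166891228) held 912, 1097 and 931 normalized reads in Rroid-deficient libraries 4, 5 and 6, against 1288, 1229 and 1161 in wildtype libraries 1, 2 and 3, 79.9% of wildtype (log2 fold change -0.33, SE 0.10, adjusted p = 0.0279, limma). The peak 30360 bp upstream (166895060 to 166896943), about as high as the start-site peak, held 2611, 2991 and 2759 normalized reads in Rroid-deficient libraries 4, 5 and 6, against 3384, 3359.7 and 3121 in wildtype libraries 1, 2 and 3, 84.8% of wildtype (log2 fold change -0.24, SE 0.08, adjusted p = 0.0427, limma). Neither peak's groups overlapped. The first call was lost in 5 of the 16 alternative fits, 4 of them without 1 library (4, 6, wildtype 1 or wildtype 2). The second call passed in 8 of the 16 alternative fits, failing without the same 4 libraries, each left out in turn, and without both libraries 4 and 6. With all 6 libraries kept, it also failed under DESeq2 size factors, cyclic loess and scaling by total reads (adjusted p = 0.0553, 0.0816 and 0.0603, limma). Between them and the first, the peak 21723 bp upstream held 245, 277 and 255 normalized reads in Rroid-deficient libraries 4, 5 and 6, against 324, 318 and 314 in wildtype libraries 1, 2 and 3, lower in every Rroid-deficient library yet without a call (adjusted p = 0.12, limma). The remaining peaks, 39002 and 77353 bp upstream, averaged 938 ± 62.4 in Rroid-deficient and 961 ± 35.3 in wildtype cells, and 1021 ± 67.5 in Rroid-deficient and 1039.8 ± 43.6 in wildtype cells. The 3 low peaks 30265 bp downstream and 10325 and 64096 bp upstream averaged 41.3, 62.8 and 86.1 in Rroid-deficient and 32.9, 42.9 and 76.5 in wildtype cells, none with a call.

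**Figure D4:**
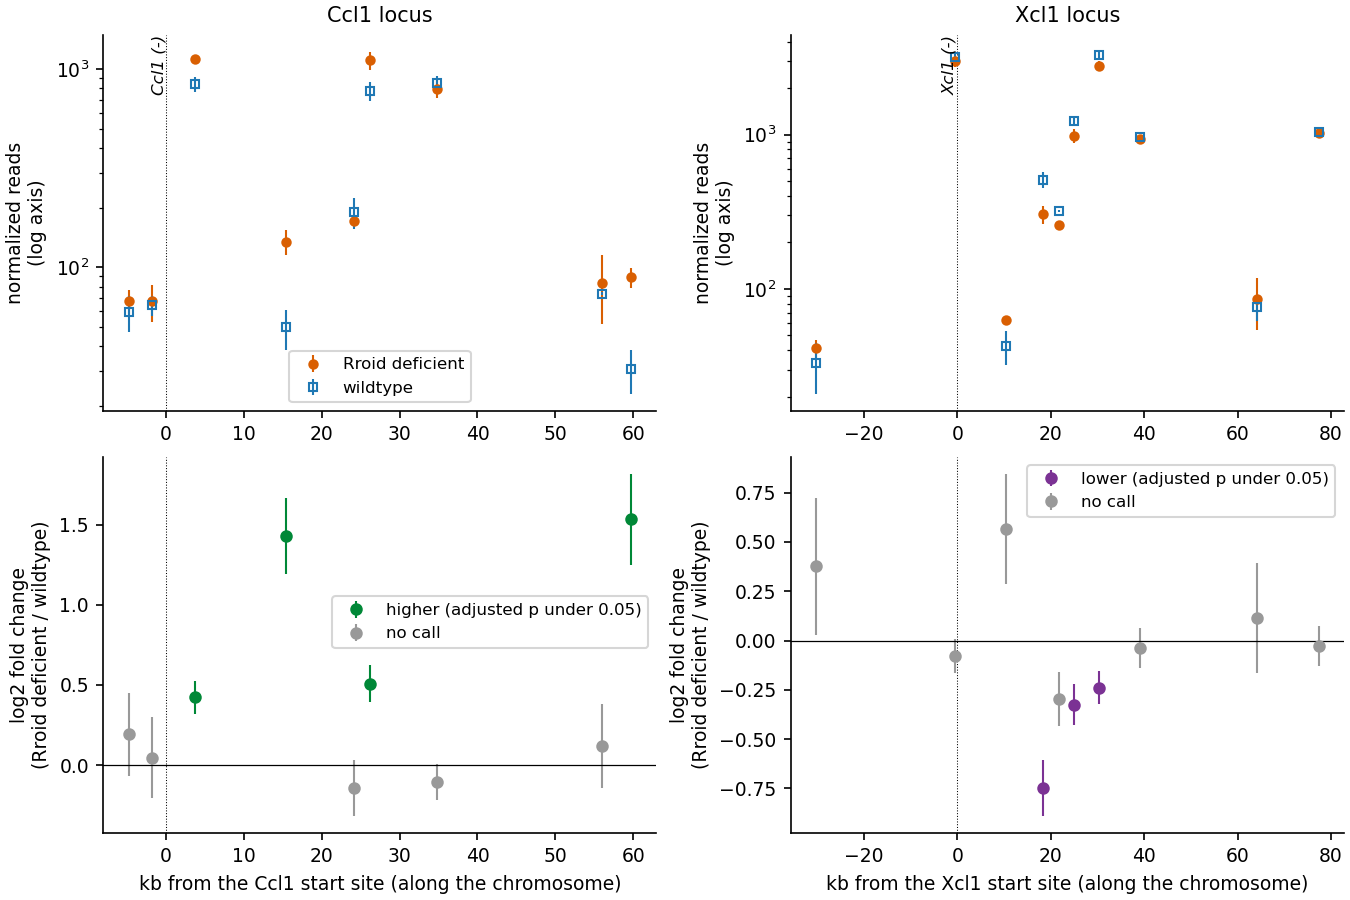
The Ccl1 locus (left) and the Xcl1 locus (right) by distance in kb from the start site along the chromosome, both genes being on the minus strand so that positive values lie upstream. The upper panels give mean normalized reads on a log axis with SD (n = 3 per genotype, Rroid deficient filled, wildtype open), and the lower panels give log2 fold changes with SE, with 4 called risers at Ccl1 and 3 called fallers at Xcl1.

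Promoter sequences are given for Ccl3 and Xcl1. Ccl3 fell at a peak spanning its promoter, and the Xcl1 start-site peak, which spans that gene's promoter, had no call. Any link between the letters and accessibility was not tested. RefSeq windows from 250 bases before to 50 bases after the start (GRCm38.p6, minus strand, written 5′ to 3′ along the gene) were at hand for 5 of the 7 genes, not for Ccl4 or Ccl5. Capitals mark matches to any of 8 short motifs searched on both strands.
Ccl3 promoter: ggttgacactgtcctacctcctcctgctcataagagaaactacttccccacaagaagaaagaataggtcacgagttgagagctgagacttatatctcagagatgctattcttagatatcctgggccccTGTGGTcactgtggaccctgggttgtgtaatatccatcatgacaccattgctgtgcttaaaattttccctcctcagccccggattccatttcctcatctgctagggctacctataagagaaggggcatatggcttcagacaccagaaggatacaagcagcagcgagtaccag
Xcl1 promoter: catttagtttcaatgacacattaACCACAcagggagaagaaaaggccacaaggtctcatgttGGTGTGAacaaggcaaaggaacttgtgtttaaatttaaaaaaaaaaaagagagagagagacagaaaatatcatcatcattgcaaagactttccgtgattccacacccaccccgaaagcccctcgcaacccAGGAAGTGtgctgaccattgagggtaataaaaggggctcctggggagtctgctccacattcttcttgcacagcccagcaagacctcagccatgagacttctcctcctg
The Ccl3 window (chr11:83649329-83649628) holds 1 match, the RUNX-like letters TGTGGT, which 16.8% of all 32851 such windows hold. The Xcl1 window (chr1:164935473-164935772) holds 3, TGTGGT on the reverse strand, the T-box letters GGTGTGA (3.98% of windows) and the ETS letters AGGAAGTG (4.07%). Neither window holds the E-box letters CAGCTG (16.3%) or CAGGTG (20.2%), a gapped NF-kB motif (1.47%), the AP-1 letters TGANTCA (7.81%) or the STAT letters TTCNNNGAA (8.30%). Within the Ccl3 and Xcl1 windows no matches overlap each other. Of the windows not printed, Ccl1 holds the NF-kB motif, Ccl9 holds CAGCTG and TGANTCA, and Ccl6 holds AGGAAGTG. A match is a string of letters and does not show a bound factor.

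Calls at peaks next to the 3 places, assigned to other genes, were mixed, beside 12.1% lower and 13.8% higher over all peaks. Within 100 kb of the linked cluster there were 9, of which 2 fell, 1 rose and 6 did not pass. Apart from the riser, all had a log2 fold change below 0, from -0.69 to -0.0044. Among them, a high peak 2771 bp downstream of the 1700020L24Rik start site averaged 1458 ± 191 in Rroid-deficient and 1771 ± 255 in wildtype cells (adjusted p = 0.0858, limma). The start-site peaks of Taf15 and Heatr6 averaged 2985 ± 221 in Rroid-deficient and 3501 ± 304 in wildtype cells, and 378 ± 52.2 in Rroid-deficient and 377 ± 15.5 in wildtype cells (adjusted p = 0.0662 and 0.985, limma). At Taf15 the groups did not overlap, though the peak had no call. The 2 falling peaks were both near Wfdc21, 18035 bp (119.8 ± 12.4 in Rroid-deficient and 177 ± 16.1 in wildtype cells) and 7531 bp upstream (95.4 ± 25.2 in Rroid-deficient and 151 ± 18.5 in wildtype cells), and the rising one was 7480 bp downstream of 1700020L24Rik (120.1 ± 13.4 in Rroid-deficient and 73.5 ± 11.7 in wildtype cells). Within 100 kb of the Xcl1 peaks there were 9, with 3 falling and 3 rising. The rise with the smallest adjusted p, 2313 bp beyond the last Xcl1 peak (166947176 to 166947856), held 263, 293 and 201 normalized reads in Rroid-deficient libraries 4, 5 and 6, against 117, 94.9 and 73.3 in wildtype libraries 1, 2 and 3 (log2 fold change 1.41, SE 0.21, adjusted p = 8.16e-05, limma). On the other side, a peak 5407 bp beyond the first Xcl1 peak (166828744 to 166829708) held 483, 516 and 399 normalized reads in Rroid-deficient libraries 4, 5 and 6, against 646, 698 and 659 in wildtype libraries 1, 2 and 3 (log2 fold change -0.53, SE 0.12, adjusted p = 0.00447, limma), and one 22085 bp beyond it rose, averaging 96.3 ± 15.2 in Rroid-deficient and 29.4 ± 7.44 in wildtype cells. The 2 other falling peaks lay 70738 and 56109 bp downstream of the 4930568G15Rik start site, at 79.9 ± 17.1 in Rroid-deficient and 134 ± 18.0 in wildtype cells, and 102 ± 8.67 in Rroid-deficient and 175 ± 18.6 in wildtype cells, and the start-site peak of that gene rose, with 267 ± 53.9 in Rroid-deficient and 176 ± 25.7 in wildtype cells. No peak of another gene lay within 100 kb of the Ccl1 peaks.

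Other chemokine ligand genes had 30 peaks near 14 genes, of which 3 fell, 3 rose and 24 had no call. These shares, 10.0% lower and 10.0% higher, were below the 12.1% and 13.8% of all peaks. The single peaks below are thus a description. Their median log2 fold change was 0.05. The fall with the smallest p was at the promoter of Ccl27a, which encodes an attractant of skin-homing T cells (chromosome 4, 41717118 to 41717657), with 66.3, 70.4 and 67.7 normalized reads in Rroid-deficient libraries 4, 5 and 6, against 404, 311 and 269 in wildtype libraries 1, 2 and 3 (log2 fold change -2.23, SE 0.19, adjusted p = 2.54e-07, limma). The other falls were at the second Ccl27a peak (2853 ± 329.7 in Rroid-deficient and 4301 ± 218 in wildtype cells) and near Ccl21b (94.3 ± 8.99 in Rroid-deficient and 188 ± 25.5 in wildtype cells). The Ccl27a and Ccl21b genes have near-identical copies on chromosome 4, so reads could have been split between copies and these values are uncertain. The rise with the smallest p was 10121 bp downstream of the Ccl22 start site (chromosome 8, 97279388 to 97280023), with 69.0, 91.4 and 67.7 normalized reads in Rroid-deficient libraries 4, 5 and 6, against 37.4, 30.2 and 31.3 in wildtype libraries 1, 2 and 3 (log2 fold change 1.17, SE 0.28, adjusted p = 0.00465, limma). Ccl22 and Ccl17, which encode ligands of CCR4, and Cxcl5, which encodes a neutrophil chemokine, had 1 rising peak each. The Cxcl10 promoter peak, near the start of an interferon-induced CXCR3 ligand gene, averaged 511 ± 23.0 in Rroid-deficient and 493 ± 15.2 in wildtype cells (adjusted p = 0.786, limma).

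Among receptor genes, Ccr3, Ccr8 and Xcr1 had 11 peaks, and Ccr1 was the nearest gene of no peak. None fell in limma, edgeR or DESeq2 with all 6 libraries, and 1 rose in limma only. Of all peaks, limma called 12.1% lower and 13.8% higher. This peak, 9178 bp upstream of the Ccr8 start site (chromosome 9, 119991685 to 119992461), held 91.5, 55.2 and 72.5 normalized reads in Rroid-deficient libraries 4, 5 and 6, against 69.5, 26.9 and 20.5 in wildtype libraries 1, 2 and 3, with overlapping groups (log2 fold change 1.06, SE 0.38, adjusted p = 0.0482, limma; adjusted p = 0.0936 by edgeR and 0.0918 by DESeq2). The Xcr1 peak, 10538 bp upstream, averaged 596 ± 31.2 in Rroid-deficient and 612 ± 72.4 in wildtype cells (adjusted p = 0.87, limma). At an unadjusted p under 0.05, 2 receptor peaks were lower and 3 higher.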

How the data were processed

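ATAC-seq was measured in 3 Rroid-deficient and 3 wildtype libraries. The submitters' processing notes list HOMER, MACS2 2.1.0, DiffBind, BWA, R 3.1.1, Trimmomatic 0.32 and bcl2fastq 2.16.0, with mm9 as the build. What each tool did, any cut-site shift of reads and any removal of duplicates are not given in the sources used here, so none of these could be checked. The authors deposited 1 table of signal values for 51775 consensus peaks. Multiplied by 1 factor per library they came out as whole reads (100.0% within 0.01 reads), and they are called normalized reads here. Columns were assigned to samples by genotype only, since the Rroid-deficient column endings match no title.

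Log2(value + 1) was tested with limma 3.58.1 (empirical Bayes with an intensity trend, R 4.3.3), Rroid deficient minus wildtype, over all peaks with a value of at least 10 in 3 libraries, a filter that removed 0 peaks. P-values were adjusted by Benjamini-Hochberg, with calls at an adjusted p under 0.05. A fold change on this scale understates the change of low peaks. Sums and ratios were compared by two-sided exact permutation tests. Ratios used peak pairs chosen after their values were seen. The design named edgeR for counts. Since the unit was signal, limma was used, and edgeR 4.0.16 and DESeq2 1.42.0 on recovered reads were alternatives. Of all peaks, limma called 6257 lower and 7126 higher, edgeR 6246 and 7080, and DESeq2 6167 and 7009. All 3 called 16 member peaks lower and 5 higher. Other alternatives were scalings, pseudocounts, filters, a stricter limit and libraries left out. Text names every called member peak, each member's peak nearest its start site, called neighbours, and the smallest p in each direction of other lists. A gene each of the receptor and myeloid lists is not reported here. Further peaks named were chosen after their values were seen. Members and lists were chosen with earlier results of these data known. Depth was 27572006 to 47939665 reads in peaks, and intervals of counting error were not used.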

Additional observations from a re-analysis of the deposited data

How the results depend on the processing

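No paired analysis was possible because the Rroid-deficient columns end in 4 to 6 and match no title, so the genotypes share no replicate number, although the wildtype endings 1 to 3 match titles. All 16 falls and 5 rises kept their direction in all 16 alternative fits. With edgeR, DESeq2, other pseudocounts and other filters both counts stayed within 1.5 times. The fit with no filter, 1 of the 16, could not differ from the main fit, since the main filter removed 0 peaks. Leaving out 1 library gave 8 to 18 falling member peaks and 4 to 5 rising ones, with 7 to 15 falling and 0 to 1 rising in the linked cluster and 1 to 3 falling at Xcl1. Other ligands then had 1 to 6 rising peaks, and receptors 0 to 1 falling and 0 to 2 rising peaks. The cause was not tested. Without libraries 4 and 6 the members had 4 falling and 3 rising peaks, the cluster 3 and 0, Xcl1 1 falling peak, other ligands 1 rising and receptors 0 rising. At an adjusted p limit of 0.01 members had 8 falling peaks, the cluster 7 falling and 0 rising, Xcl1 1 falling, other ligands 1 rising and receptors 0 rising. With all peaks within 20 kb of a start site, 2 rose. Receptors had 0 rising peaks with edgeR, with DESeq2, with cyclic loess and with a filter of 50.

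Direction turned only at member peaks without a call. Without libraries 4 and 6 the log2 fold changes were 0.051 at Xcl1 +571, 0.066 at Xcl1 -39002, -0.50 at Xcl1 -64096, 0.030 at Xcl1 -77353, -0.14 at Ccl1 +1822, 0.064 at Ccl1 -34769, -0.29 at Ccl1 -55943 and -0.21 at Ccl9 -565 (signed distance from the start site in bp, negative upstream). Cyclic loess gave 0.0021 at Xcl1 +571, 0.0053 at Xcl1 -39002, 0.017 at Xcl1 -77353 and -0.088 at Ccl1 +1822. Scaling by total reads gave 0.022 at Xcl1 -39002 and 0.031 at Xcl1 -77353. Leaving out 1 library gave -0.088 to 0.0051 at Xcl1 -39002, -0.14 to 0.42 at Xcl1 -64096, -0.057 to 0.028 at Xcl1 -77353, -0.12 to 0.14 at Ccl1 +1822, -0.16 to 0.33 at Ccl1 -55943, -0.032 to 0.22 at Ccl5 -20003, -0.096 to 0.28 at Ccl9 -565 and -0.033 to 0.18 at Ccl3 -5476. Scaling moved the median over all peaks by less than 0.1. At peaks under 100 reads a library, such as Ccl1 -59741, depth limits the precision.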
